A study of Mus musculus with 6 samples.

Results

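The genes described here encode the integrin subunits that give a cell its grip on collagen or on laminin: Itga1, Itga2, Itga10 and Itga11, whose products bind collagen, and Itga3, Itga6, Itga7 and Itgb4, whose products bind laminin. They were taken by gene symbol from a deposited table of 27366 features, in which all 8 were found, and they were chosen with their values in the comparison of control and Islr knockout libraries already known. The RNA came from mouse satellite cells, which regenerate skeletal muscle. At day 4, when both groups were taken, they were growing with 20% serum and with added basic FGF. The labels give 3 libraries the genotype control and 3 the genotype ko (Islr knockout), while the design text speaks of cells sorted by whether Islr was present or absent. For the strain and age of the mice, the allele, any Cre driver and the pooling of animals, the sources used here give nothing. They also do not tell whether each library had its own animal or culture, so the spread within a group may be partly technical.

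Integrins are receptors of 1 alpha and 1 beta subunit that join the extracellular matrix to the actin cytoskeleton. All alpha subunits described here pair with the product of Itgb1, and that of Itga6 also pairs with the product of Itgb4. The Itgb4 product is known from the hemidesmosomes of epithelia, and also from Schwann cells and endothelium. The 4 collagen-binding alpha subunits carry an inserted domain that holds the ligand, which the laminin-binding ones lack. In muscle, the product of Itga7 is the main laminin receptor of myoblasts and fibres and anchors them to the basal lamina, and that of Itga6 is present on satellite cells and myoblasts.

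Itga2 and Itga1 lie next to each other on chromosome 13, both on the minus strand, at 114833081 to 114932100 and 114953096 to 115101964 (GRCm38). They are 20995 bases apart, with 1 processed pseudogene between them. Both were higher in the library labelled knockout of every same-numbered pair, as described below, so the 250 bases before the start of each gene are shown, from the RefSeq table of GRCm38.p6, written along the gene's strand. Capitals mark a match to CAGCTG, an E-box, the kind of letters that MyoD binds.
Itga1, chr13:115101965-115102214, minus strand: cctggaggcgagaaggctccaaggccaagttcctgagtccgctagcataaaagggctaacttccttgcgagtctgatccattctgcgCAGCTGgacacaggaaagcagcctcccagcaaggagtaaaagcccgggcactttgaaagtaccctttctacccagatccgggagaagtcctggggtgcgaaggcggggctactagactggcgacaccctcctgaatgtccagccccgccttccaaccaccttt
Itga2, chr13:114932101-114932350, minus strand: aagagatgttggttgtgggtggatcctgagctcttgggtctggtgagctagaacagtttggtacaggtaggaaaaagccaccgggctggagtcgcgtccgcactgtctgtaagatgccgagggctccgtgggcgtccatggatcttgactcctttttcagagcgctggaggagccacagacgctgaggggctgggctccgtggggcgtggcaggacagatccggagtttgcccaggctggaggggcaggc
The single CAGCTG of the Itga1 stretch begins 163 bases before the annotated start, and the Itga2 stretch held none. CAGCTG, searched on both strands (its reverse complement is the same), occurs in 13.0% of 32851 stretches of this length before RefSeq starts. Neither stretch held TGACTCA (the AP-1 letters, in 4.46% of stretches), GGAATG (Tead, 12.6%) or GGGCGG (Sp1, 32.7%) on either strand, and these motifs do not overlap CAGCTG. A match is a description of letters and not a binding site. The table had entries for 5 of the 8 genes; Itga6, Itga7 and Itgb4 were not among them.

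The 6 libraries held between 16456917 and 20531276 reads on genes. Islr itself did not follow the labels: control libraries 1, 2 and 3 had 181.1, 12.8 and 1579.3 scaled reads, and Islr knockout libraries 1, 2 and 3 had 256.7, 7.38 and 10.9. By its label, knockout 1 should not be above control 1 and 2, but it was. Control 2 also went against its label, as its 12.8 lay close to knockout 2 and 3. Reads outside a deleted part check nothing and that part is not given, so groups are named here by their labels. The cells carried muscle stem cell and myoblast transcripts in every library, with Pax7, the satellite cell transcription factor, between 1233.2 and 2729.2 scaled reads and Myod1, a factor of committed myoblasts, between 18887.8 and 33818.2. They differed widely in differentiation: Myog, which marks the entry into it, ran from 417.2 to 43369.9. Scaled reads are reads divided by 1 size factor per library, as the authors deposited them. These are bulk samples, so fewer cells of a type and less RNA per cell cannot be told apart.

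Laminin-binding subunits were far more abundant than collagen-binding ones. Per length, in scaled reads per kilobase of the union of a gene's exons, Itga7 was highest of the 8, with 1910 ± 1080 (SD, n = 6), and ranged from 987 to 3300. It was above Itga6 in 6 of 6 libraries. Itga6 had 539 ± 184, Itga3 had 412 ± 180 and Itgb4 had 319 ± 131. These 3 did not part from each other beyond their spread: Itga6 was above Itga3 in 4 of 6 libraries, and Itga3 above Itgb4 in 4 of 6. Itgb4 was above Itga2 in 6 of 6 libraries.

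The collagen-binding subunits formed the low end of the order. Itga2 had 18.1 ± 21.2 scaled reads per kilobase, Itga1 had 7.68 ± 5.30, Itga10 had 4.38 ± 2.41 and Itga11 had 2.09 ± 1.43 (SD, n = 6 each). Itga2 was above Itga1 in 4 of 6 libraries, Itga1 above Itga10 in 4 and Itga10 above Itga11 in 5, so neighbours in this order overlapped. Itgb1, which encodes the beta subunit shared by all the alpha subunits here, stood above each of them in 6 of 6 libraries, at 4050 to 8440 per kilobase. With the longest annotated transcript as the length, the order was the same, but Itga7 came to 3840, Itga6 to 1130 and Itga1 to 13.0, and Itga6 was then above Itga3 in 6 of 6 libraries.

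**Figure D1:**
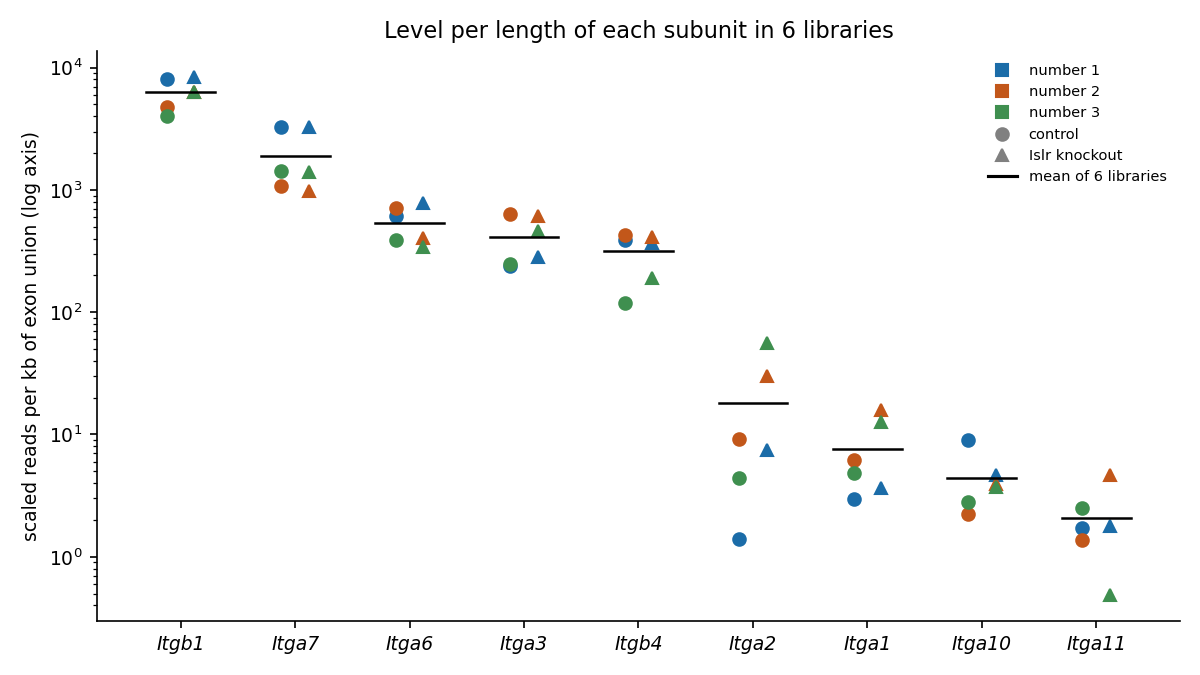
Level per length of Itgb1 and the 8 subunits, in scaled reads per kilobase of exon union on a log axis, with 1 point per library (circles control, triangles Islr knockout, colours the replicate number) and a line at the mean of 6 libraries. Itga7, Itga6, Itga3 and Itgb4 lie at or above 118 in every library, and the 4 collagen-binding subunits at or below 56.1.

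The comparison of the groups asks which integrin subunits differ with the Islr label. Among the 8 genes, Itga2 and Itga1 were higher in the knockout library of all 3 pairs, and 0 were lower in all 3. Over all genes tested, 12.2% were higher and 12.1% lower in all 3 pairs (24.3% in either direction). The 2 groups overlapped for all 8 genes, while 2.65% of tested genes were higher and 2.11% lower without overlap. In limma over the 20344 genes whose mean reached 1 scaled read, 0 genes (0.0%) passed an adjusted p of 0.05, and 276 (1.36%) had an unadjusted p under it. All 8 subunits were tested. As they were chosen from this contrast, their values are given as a description, with no p. Fold changes are on the log2(scaled reads + 1) scale, which understates those of low genes.

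Itga2, whose product is a collagen receptor best known from platelets and epithelia, had 10, 65.3 and 31.5 scaled reads in control 1, 2 and 3. Knockout 1, 2 and 3 had 53.6, 214.0 and 400.1. Control 1 was lowest and knockout 3 highest, and the groups overlapped only in that knockout 1 lay below control 2. The same-numbered ratios were 5.36, 3.28 and 12.7, with a log2 fold change of 2.54 ± 0.87 (SE). A block for the replicate number brought the SE to 0.43. The control value of number 1 rests on 9 whole reads, which limits the precision of its ratio. Leaving out knockout 1, whose Islr level went against its label, gave 3.35. It was 1.85 without control 1, 3.15 without control 2 and 1.92 without knockout 3. With both libraries of number 1 left out and the block, it was 2.66 ± 0.50.

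Itga1, whose product binds collagens of basement membranes, stood at 55.5, 114.2 and 89.5 scaled reads in the control libraries of numbers 1 to 3. The knockout libraries had 67.3, 294.3 and 236.0. Numbers 2 and 3 were well apart, with ratios of 2.58 and 2.64, while those of number 1 were close, with a ratio of 1.21. The library labelled knockout 1 lay below control 2 and 3, so the groups overlapped. The means were 199 ± 118 against 86.4 ± 29.4 (SD, n = 3), with a log2 fold change of 1.01 ± 0.59 (SE). The block brought the SE to 0.33. The log2 fold change was 1.66 without knockout 1, 0.60 without knockout 2, and 1.37 ± 0.39 without both libraries of number 1 and with the block. It was 1.24 without control 2, whose Islr level also went against its label, and 0.83 without both libraries of number 2 and with the block. Itga1 spans Pelo, which lies in the same orientation and shares 0 exon bases with it, and shares 685 exon bases (3.68% of its exons) with the gene model Gm49395, whose level was 3.50 to 5.54 scaled reads.

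Itga10 and Itga11 were close to the limit of what these libraries could measure. Itga10, known from cartilage, stood at 46.7, 11.7 and 14.5 scaled reads in the control and 24.0, 20.3 and 19.3 in the knockout libraries. The library labelled control 1 was highest and the other 5 lay within 11.7 to 24.0. A gene model in the same orientation, Gm42957, shares 33.5% of its exon bases, so some of its reads are uncertain. Itga11, a receptor for fibrillar collagens on fibroblasts, stood at 8.89, 6.99 and 12.8 in the control and 9.13, 24.0 and 2.51 in the knockout libraries. It rested on 3 to 26 whole reads per library, and the highest and the lowest library were both labelled knockout. The log2 fold changes were 0.07 ± 0.65 for Itga10 and -0.10 ± 0.81 for Itga11, and both signs turned when single libraries were left out (ranges -0.30 to 0.66 and -0.79 to 0.63). Itga10 was also negative in edgeR and DESeq2, and Itga11 positive in DESeq2. With the block for the replicate number, the SEs were 0.51 for Itga10 and 0.74 for Itga11.

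**Figure D2:**
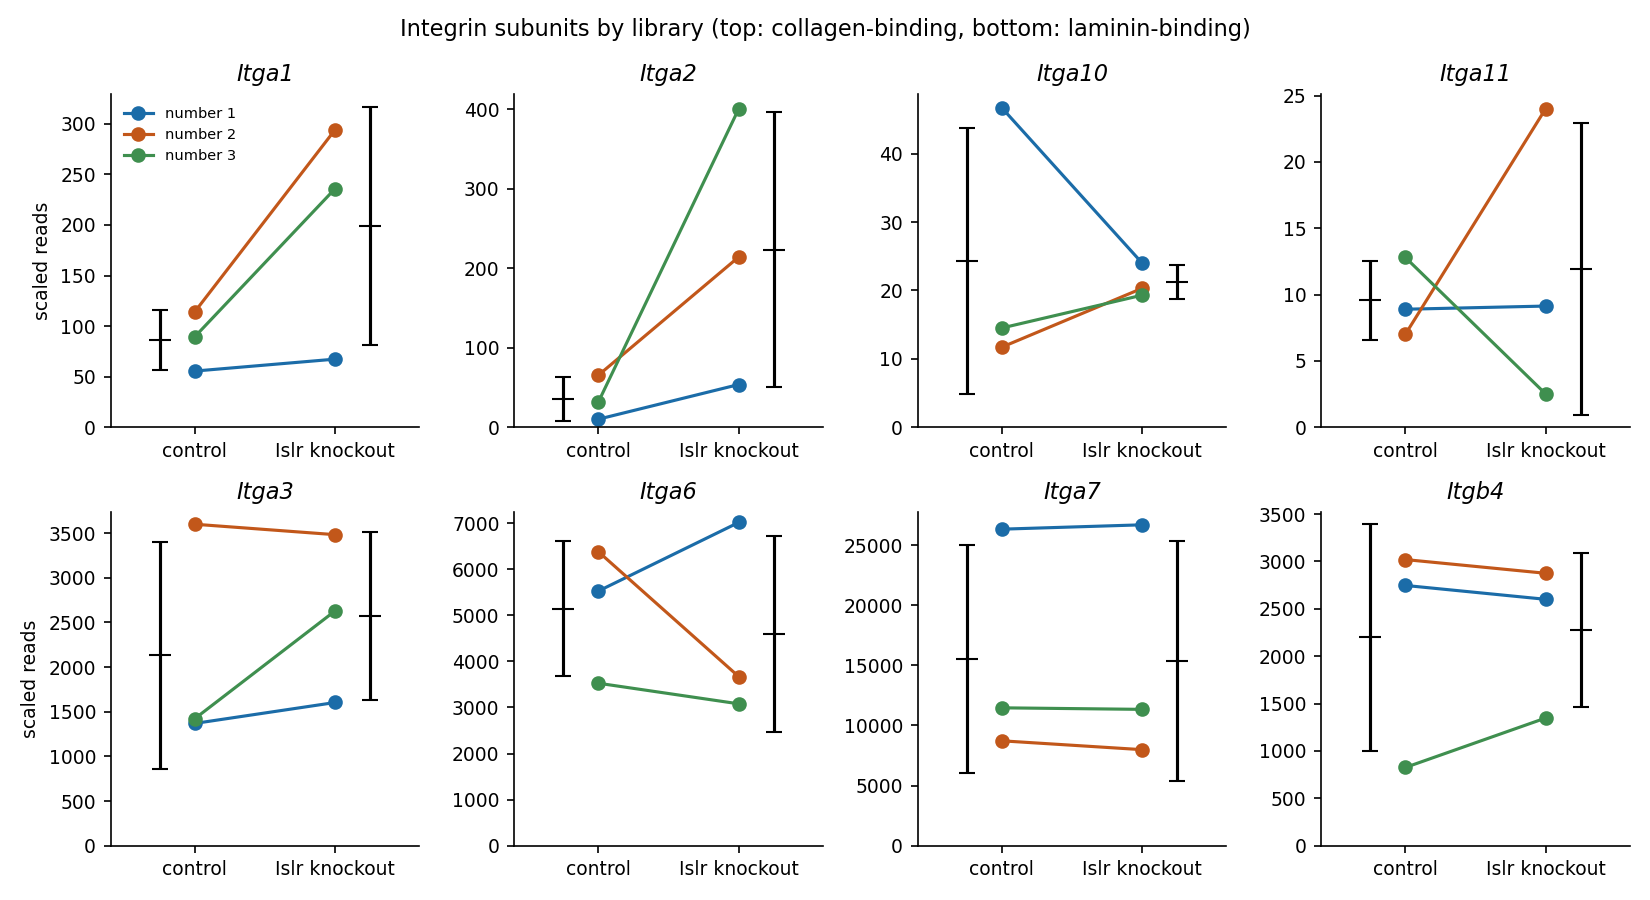
Scaled reads of the 8 subunits, 1 panel per gene with its own axis from 0. Points are libraries, lines join same-numbered control and Islr knockout libraries, and the bars beside them are group means with SD (n = 3). Every line goes up for Itga1 and Itga2, and the lines of Itga7 are nearly flat at 3 different heights.

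Itga7 differed between the replicate numbers and hardly within them. It stood at 26331.7, 8723.7 and 11468.4 scaled reads in the control libraries of numbers 1 to 3 and at 26694.1, 7987.7 and 11340.1 in the knockout libraries. Both libraries of number 1 were thus far above those of number 2, with a ratio of 3.34 between the highest and the lowest library. The same-numbered ratios were 1.01, 0.916 and 0.989. The group means were 15341 ± 9974 in the knockout and 15508 ± 9474 in the control libraries (SD, n = 3), and the log2 fold change was -0.04 ± 0.54 (SE). With the block the SE was 0.18. The value was 0.01 with library size alone, and it turned positive without control 1, knockout 2 or knockout 3 (leaving out 1 library gave -0.54 to 0.42).

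Taken as a sum, transcripts of differentiating muscle were also highest in number 1, although Ckm (1076.4 scaled reads) and Mymx (2275.6) were highest in control 3. The summed level of 7 such markers (Myog, Mymk, Mymx, Myh3, Myh8, Ckm and Acta1) was 326620.3, 1771.3 and 138787.9 scaled reads in the control and 313315.9, 9242.4 and 28616.8 in the knockout libraries. The 2 libraries with the most Itga7 had the largest sums, and the 2 with the least had the smallest. In number 3, however, the sums differed severalfold between the control and the knockout library, while Itga7 stood at 11468.4 and 11340.1. The part of differentiation in the level of Itga7 was not tested. Itga7 shares 9 exon bases with Mettl7b on the opposite strand, which had a mean of 2.73 scaled reads.

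Itga6, the other laminin receptor subunit of myoblasts, did not hold 1 direction. It stood at 5526.1, 6381.4 and 3525.9 scaled reads in the control and 7015.2, 3671.9 and 3079.2 in the knockout libraries. The knockout library was higher in number 1 (ratio 1.27) and lower in numbers 2 and 3 (0.575 and 0.873), and the highest and the lowest library were both labelled knockout. The log2 fold change was -0.22 ± 0.37 (SE, 0.24 with the block), with a range of -0.57 to 0.02 when 1 library was left out.

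Itga3, known from epithelial basement membranes, was highest in both libraries of number 2. Its values were 1368.7, 3598.6 and 1422.5 scaled reads in the control and 1602.9, 3481.8 and 2628.9 in the knockout libraries. The ratios were 1.17, 0.968 and 1.85, and the groups overlapped. The log2 fold change was 0.36 ± 0.44 (SE, 0.22 with the block). It stayed positive in all 21 alternatives, from 0.09 to 0.81.

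Itgb4 was lowest in both libraries of number 3. It stood at 2746.4, 3019.4 and 825.0 scaled reads in the control and 2600.0, 2874.8 and 1346.7 in the knockout libraries, with ratios of 0.947, 0.952 and 1.63. The log2 fold change was 0.19 ± 0.53 (SE, 0.22 with the block), and it ran from -0.42 to 0.53 when 1 library was left out. Of its exon bases, 7.66% are shared with a long noncoding RNA on the opposite strand, B230344G16Rik, at 0.837 to 6.85 scaled reads. Per length, the ratio of Itgb4 to Itga6, its partner, was 0.639, 0.609 and 0.301 in the control and 0.477, 1.01 and 0.563 in the knockout libraries.

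**Figure D3:**
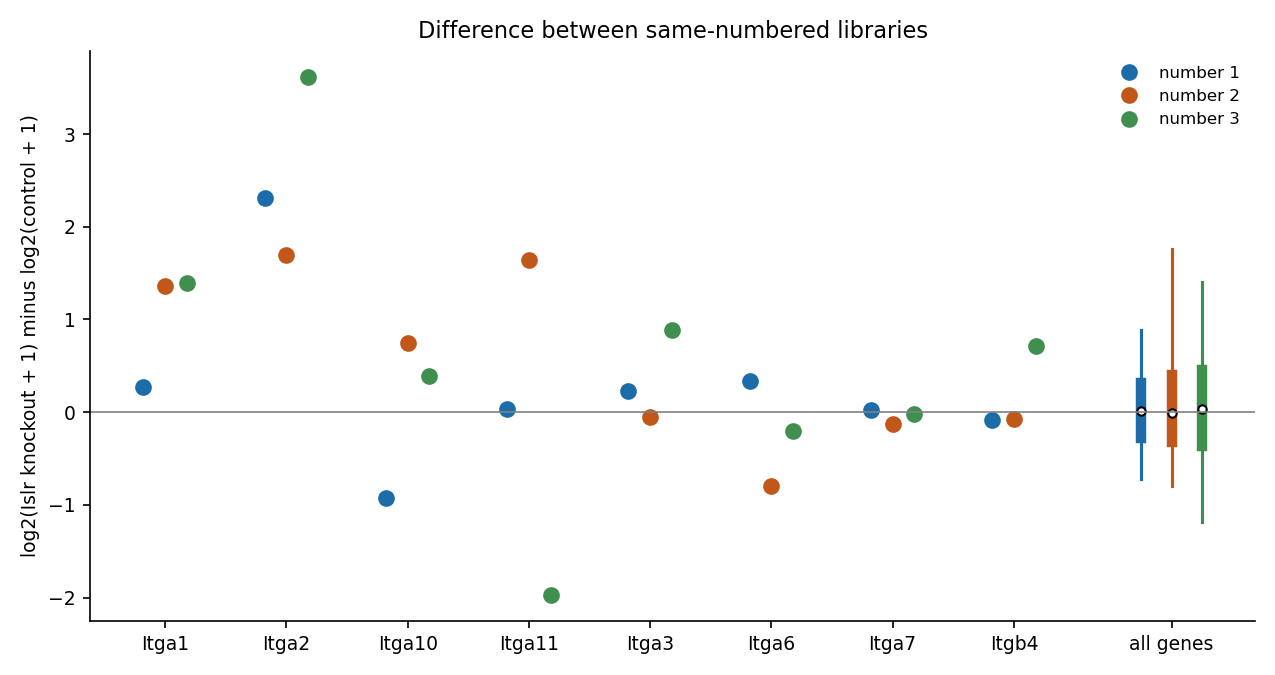
Difference of log2(scaled reads + 1) between the Islr knockout and the control library of each replicate number, for the 8 subunits. At the right, for tested genes with a mean of at least 10, thin lines run from the 5th to the 95th percentile, thick lines from the 25th to the 75th, and white points mark medians; Itga2 lies at 2.31, 1.70 and 3.62, and Itga7 between -0.13 and 0.02.

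In 6 of the 8 genes, the replicate numbers ranged more widely than the 2 libraries of a number differed in size, whatever the direction. The mean of the 2 libraries of a number ranged over 1.67 log2 units for Itga7, while the size of its pair difference averaged 0.05. For Itgb4 these values were 1.48 and 0.29, for Itga3 1.26 and 0.39, and for Itga6 0.92 and 0.45. Itga1 (1.57 and 1.01) and Itga10 (1.07 and 0.69) had the same order. Itga2 (2.28 and 2.54) and Itga11 (1.02 and 1.22) had the larger pair difference. For Itga11 the pair differences had both signs (0.03, 1.64 and -1.97), so they do not follow the label. Over the 14280 genes whose mean reached 10, the medians were 0.73 and 0.38, and the range between numbers was the wider of the 2 in 81.6%. A range of 3 means and an average of 3 sizes are unlike measures. The range can therefore be the wider without an effect of the number.

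Among the alpha subunits, the laminin-binding ones held most of the transcripts. Of the summed level per length of the 7 alpha subunits, Itga7 took 79.0%, 44.3% and 68.4% in the control and 75.4%, 48.0% and 61.6% in the knockout libraries of numbers 1 to 3. Itga3 took 5.82%, 25.9% and 12% against 6.42%, 29.6% and 20.2%. The 4 collagen-binding subunits together took 0.367%, 0.776% and 0.701% in the control libraries. They took 0.401%, 2.64% and 3.21% in the knockout libraries, where the share in number 1 lay below that of control 2 and 3. Itga2 alone took 1.46% and 2.46% in knockout 2 and 3. By the longest transcript the collagen-binding shares were 0.215%, 0.528% and 0.453% against 0.235%, 1.82% and 1.98%, and those of Itga2 in knockout 2 and 3 were 0.832% and 1.35%. Shares sum to a whole, so a change in 1 subunit moves the others.

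**Figure D4:**
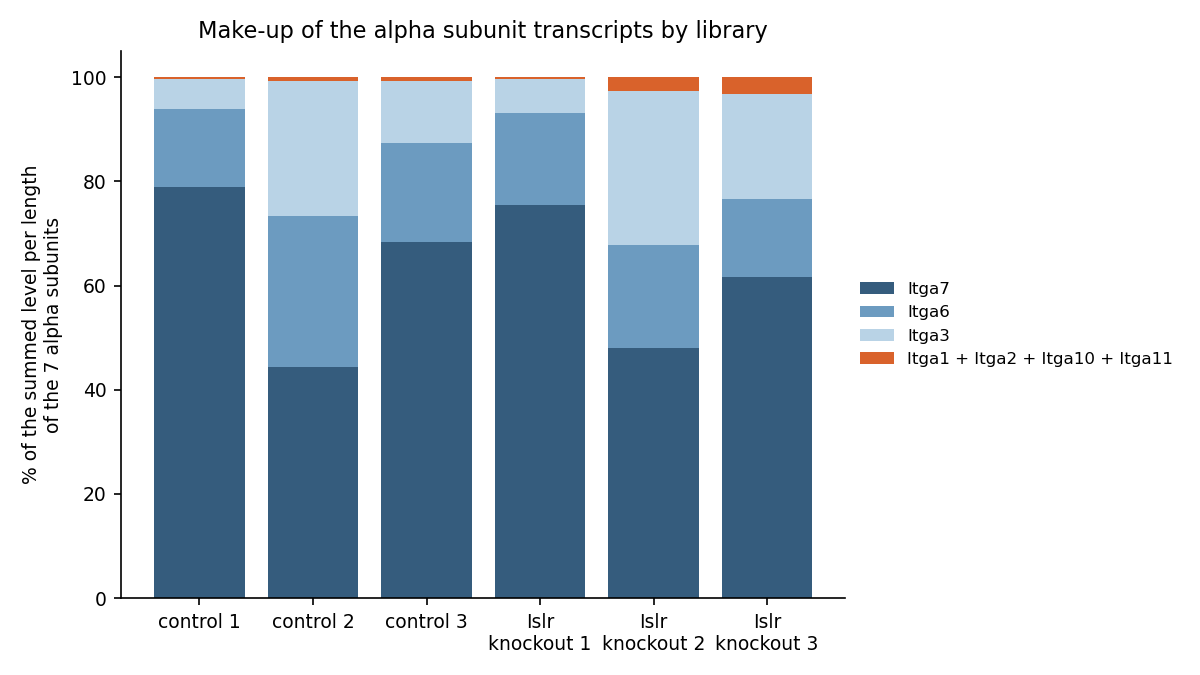
Share of each alpha subunit in the summed level per length (exon union) of the 7 alpha subunits, as stacked bars from 0 to 100%, 1 bar per library. Itga7 is the largest part of every bar, from 44.3% to 79.0%, and the collagen-binding part reaches 2.64% and 3.21% in the libraries labelled Islr knockout 2 and 3.

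The genes most like each subunit over the 6 libraries were found by the root mean square difference of centred log2 values, among about 10411 genes with a mean of at least 100 scaled reads. Nearest to Itga7 were Ripor2 (0.07 log2 units), Mir22hg (0.11) and Rccd1 (0.12), beside a spread of 0.71 for Itga7 itself. Ripor2 stood at 233.3, 87.4 and 108.2 in the control and 244.1, 72.0 and 97.1 in the knockout libraries. Nearest to Itga6 were Hmbox1, Ccdc14 and Zfp280d (0.07 each, spread 0.46). For Itga3 they were Sipa1l1 (0.12), Fam102b and Mapre2 (0.14 each, spread 0.59), and for Itgb4 Map2k3 (0.11), Sqle (0.13) and Polr1b (0.14, spread 0.70).

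Itga1 was most like Mmp17 and Epas1 (0.22 each) and the laminin chain gene Lama4 (0.23), with a spread of 0.88. Lama4 stood at 70.0, 116.5 and 74.1 in the control and 67.3, 390.3 and 272.0 in the knockout libraries. Itga2 had no close match: Slco4a1 (0.83), Cx3cl1 (0.85) and Serpinb2 (0.88) were nearest, against its spread of 1.71. All 3 were highest in knockout 2 and 3. In number 1, control and knockout had 55.5 and 57.0 scaled reads of Slco4a1 and 217.8 and 213.3 of Cx3cl1. Itga10 was most like Gss (0.24), Pcyt2 (0.27) and Ifitm10 (0.28), and Itga11 like Snai1 (0.46), Gm11942 (0.54) and Adgrg1 (0.55). Among the 8 subunits the closest were Itga10 and Itga7 (0.46), Itga6 and Itgb4 (0.52), and Itga1 and Itga3 (0.56), whereas the neighbours Itga1 and Itga2 differed by 0.97. With 6 libraries in 3 pairs, many genes share such patterns.

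The summed endothelial and epithelial markers were, like Itga1 and Itga2, highest in the libraries labelled knockout 2 and 3. Of 8 endothelial markers, 6 were higher in the knockout library of all 3 pairs, beside 12.2% of all genes tested. Cdh5 and Egfl7 were not among the 6. In number 1 the margin was narrow for Pecam1 (26.7 in control, 27.4 in knockout), Tie1 (3.33 and 3.42) and Tek (31.1 and 33.1). The summed level of the 8 endothelial markers was 324.4, 656.1 and 478.1 scaled reads in the control and 327.4, 1521.3 and 1357.6 in the knockout libraries. Cdh5, the cadherin of endothelial junctions, stood at 138.9, 226.1 and 161.1 against 110.7, 597.8 and 632.7, and no endothelial marker was at 0 in any library. The sums of 6 epithelial markers were 38.9, 50.1 and 59.7 against 33.1, 323.8 and 246.1, and 2 of the 6 were higher in all 3 pairs. Of these 2, Krt14 was nearly level in number 1, at 1.11 in the control and 1.14 in the knockout library. Krt8, a keratin of simple epithelia, stood at 2.22, 0 and 0 against 0, 77.5 and 53.6. Epcam was also at 0 in knockout 1, Cdh1 in control 2, Krt5 in control 1, control 2 and knockout 3, and Krt14 in control 2 and 3.

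Fibroblast markers also differed in numbers 2 and 3. The sums of 7 fibroblast and fibro-adipogenic markers were 386.6, 265.7 and 1457.4 in the control and 318.3, 1265.8 and 4390.7 in the knockout libraries. Of the 7, 1 was higher and 1 lower in all 3 pairs, beside 12.2% and 12.1% of all genes tested. Pdgfra, which defines fibro-adipogenic cells, stood at 91.1, 85.1 and 165.3 against 83.3, 296.1 and 417.6. As for Itga1, the knockout libraries of numbers 2 and 3 had the higher sums; in number 1 the knockout sum was the lower one. Dpt was at 0 in knockout 1 and 2, and Pi16 in control 1 and 2. The sums of macrophage and platelet markers (5 in the table) were 83.3, 40.8 and 70.7 against 50.2, 101.5 and 287.9, with Ptprc at 0 in all control libraries and in knockout 2. The summed level of 8 Schwann and glial markers ranged from 828.6 to 2406.4 in the control and from 1902.4 to 3159.1 in the knockout libraries, and 2 of the 8 were higher in all 3 pairs. Sox10, which defines that lineage, stood at 51.1, 83.9 and 43.5 against 31.9, 293.4 and 276.2. Pericyte and smooth muscle markers (6) ranged from 2393.2 to 3685.2 against 2477.4 to 4763.1. Tendon and cartilage markers (5) ranged from 2996.1 to 3818.5 against 2495.0 to 3497.9. In number 1, the endothelial sums were 324.4 and 327.4 and the epithelial sums 38.9 and 33.1, while Itga2 stood at 10 and 53.6. The part of such cells in the levels of Itga1 and Itga2 was not tested.

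**Figure D5:**
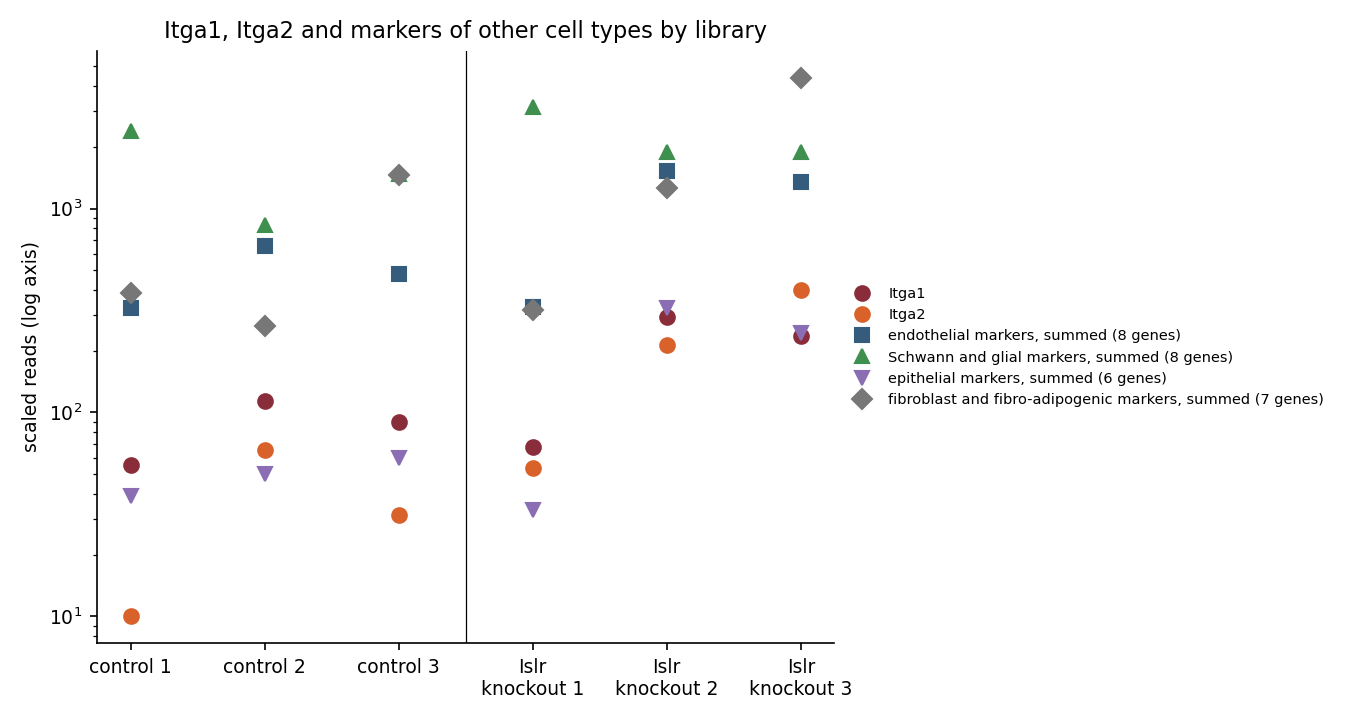
Scaled reads of Itga1 and Itga2 and the summed scaled reads of 4 marker lists, on a log axis, by library. Itga1, the endothelial sum and the epithelial sum are highest in the libraries labelled Islr knockout 2 and 3, and in knockout 1 they lie near control 1.

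The other genes of the pathway were taken from 7 lists with 88 genes, of which 86 were tested. In limma 0 of these passed the adjusted threshold, and 4 higher and 1 lower had an unadjusted p under 0.05 (1.15% and 0.211% of all genes). EdgeR and DESeq2 also called 0, with 4 and 5 genes at an unadjusted p under 0.05. Of the 86 genes, 28 (32.6%) were higher in the knockout library of all 3 pairs and 5 (5.81%) lower, beside 12.2% and 12.1% of all genes. The lists were chosen with earlier results of these data known, so these counts and those of the single lists are a description. The median log2 fold change over all genes was 0.03. SEs on these lists are from the fit without the block for the replicate number. With it, that of Itgb1, for example, was 0.19 in place of 0.32, and that of Lama2 0.20 in place of 0.51. Each limma adjusted p in the paragraphs on these lists was 1.0.

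Among the other integrin subunits, 9 of 17 were higher in all 3 pairs and 1 lower, beside 12.2% and 12.1% of all genes. Their median log2 fold change was 0.47. Some of the 9 were nearly level in number 1, such as Itga8 (7.78 in control, 7.99 in knockout) and Itgax (1.11 and 1.14). Itgb1, the common partner, stood at 32908.8, 19585.9 and 16543.0 scaled reads in the control and 34462.2, 25903.3 and 25677.3 in the knockout libraries (log2 fold change 0.37 ± 0.32, SE). It was higher in each pair, and the groups overlapped. Itgb3, the beta subunit of vitronectin receptors, stood at 589.9, 419.5 and 435.5 against 523.7, 1459.5 and 1275.5, with a log2 fold change of 1.06 ± 0.40. Itgav, its alpha partner, stood at 2364.2, 3329.4 and 1686.7 against 3898.4, 4274.3 and 3735.4 (0.74 ± 0.29), with no overlap between the groups. Over all genes tested, 2.65% were higher in the knockout libraries without overlap. Itga4, a receptor subunit for fibronectin and Vcam1, stood at 92.2, 59.4 and 75.9 against 249.9, 79.3 and 368.3 (1.37 ± 0.57). Itga5, the fibronectin receptor subunit, averaged 788 per kilobase. Its groups also did not overlap, but by a narrow margin, with control 1 at 3139.7 and knockout 1 at 3152.2 scaled reads.

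The products of the laminin chain genes are the ligands of Itga3, Itga6 and Itga7. Of 11 tested, 0 passed the adjusted threshold and 7 were higher in the knockout library of all 3 pairs, with a median log2 fold change of 0.52. Lama5 was near 0 (0.07) and had the lower knockout mean, 1765 against 1908. Lama2, the alpha chain of the muscle basal lamina, stood at 1566.5, 620.0 and 989.5 in the control and 3485.4, 945.6 and 1645.5 in the knockout libraries (0.83 ± 0.51). Lamc1, the common gamma chain, stood at 2482.0, 3274.6 and 1774.5 against 3928.0, 3278.9 and 2990.5 (0.47 ± 0.29), and Lamb1 had the highest level per length of the list (628). Of 14 collagen genes, 2 were higher in all 3 pairs (Col1a1 and Col1a2, the chains of type I collagen) and 1 was lower, with a median of 0.28. The lower one, Col2a1 of cartilage collagen, stood at 25.6, 23.3 and 35.8 against 5.70, 18.5 and 4.18 (-1.71 ± 0.67). Col5a2 and Col4a1 had the highest levels per length, 1590 and 918.

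Receptors of other kinds did not move as a group. Of 6 tested, 1 was higher and 1 lower in all 3 pairs (median 0.25). Ddr1, a collagen-binding receptor kinase, was the lower one, at 8203.6, 4578.6 and 5590.2 against 7694.0, 3830.6 and 4728.0. Its level per length averaged 1210, more than that of any collagen-binding integrin subunit in any library. Dag1, the dystroglycan laminin receptor, stood at 5180.6, 3101.0 and 7515.5 against 9098.4, 3262.3 and 4973.3 (0.10 ± 0.44). Mrc2, a collagen uptake receptor, had 0.44 ± 0.47. Lair1, an immune receptor, was at 0 in the control libraries and at 1.14, 0.923 and 4.18 in the others.

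On the cytoplasmic side, 8 of 30 adhesion proteins were higher and 2 lower in all 3 pairs (median 0.25). Fermt1, the epithelial kindlin, was near the detection limit, at 0, 2.33 and 0.852 against 4.56, 12 and 20.1, and had the smallest unadjusted limma p of these lists (0.00936, adjusted p = 1.0). Ptk2b, a focal adhesion kinase homologue, stood at 371.1, 533.7 and 419.3 against 392.5, 806.3 and 941.6 (0.61 ± 0.36). Flna and Actn4 had the highest levels per length, 3240 and 2210. Of 5 tetraspanins 0 moved one way in all 3 pairs (median 0.13). Cd151, the tetraspanin that binds laminin receptors, stood at 3131.9, 4113.6 and 3369.1 against 3042.7, 4640.6 and 4573.2 (0.19 ± 0.27); Cd63 and Cd81 had the highest levels per length, 6520 and 1840, and Cd9 had 0.21 ± 0.27.

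Of the 3 hemidesmosome genes, which act with Itgb4, 1 was higher in all 3 pairs (median 0.64). Plec, the linker of Itgb4 to intermediate filaments, stood at 24113.0, 17314.6 and 7871.8 in the control and 37631.6, 15201.4 and 11917.6 in the knockout libraries (0.35 ± 0.53). Dst stood at 6468.2, 6851.0 and 2328.5 against 15167.9, 4551.1 and 5658.7 (0.64 ± 0.56). Col17a1, a collagen of hemidesmosomes, was low, at 14.4, 0 and 16.2 against 18.3, 17.5 and 41.8. In number 3, Itgb4, Plec and Dst each had their lowest control value, and the knockout library of that number was above it for all 3.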

How the data were processed

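RNA of 6 mouse satellite cell libraries (3 labelled control, 3 Islr knockout) was compared. The authors deposited a signal per gene and library, which is gene reads divided by 1 size factor, beside FPKM values and their own log2 fold changes, per the file headers; only the scaled reads were tested. Per the submitters' processing notes, the tools were edgeR 3.18.1, DESeq2 1.16.1, HISAT2 2.0.5, Trimmomatic and HTSeq, without role or order. For build, annotation and strand use, the sources used here give nothing. FPKM, by the deposited values, averaged 209 for Itga7 and 1.03 for Itga2. The authors' deposited table gives log2 fold changes of 2.65 for Itga2, 1.21 for Itga1 and -0.02 for Itga7. A deposited table of raw counts covers part of the genes.

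Of the lines, 36 damaged ones were dropped, and 27366 features remained. The step of 1 read was recovered: 100.0% of values were whole within 0.01, and the reads of 480 of 480 genes shared with the raw table equalled its counts. Of 27093 Ensembl genes, 26931 had the same coordinates in GENCODE M21, so GRCm38 coordinates and exon lengths from it were used. The column of control 1 carries its 4-digit label with 2 digits exchanged. Left unused were 6 other columns with per-sample values.

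Main test: limma 3.58.1 (trend, robust) on log2(scaled reads + 1), mean of at least 1, unblocked, Benjamini-Hochberg adjusted p under 0.05, two-sided. The fit was tried on simulated data without differences between replicate numbers, which does not give its power in these libraries. Alternatives used edgeR 4.0.16 and DESeq2 1.42.0 on whole reads, other scalings, pseudocounts and filters, a replicate block, and left-out libraries. Deviations of same-numbered libraries correlated at 0.689, 0.633 and 0.625 over 14280 genes, so the numbers were taken as pairs. The labels do not say what a number marks, and this rests on the correlations alone.

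The 8 genes and all lists were chosen with earlier results of these data known. Named in any case, whatever their test gave, were the 8 subunits, Islr, Itgb1, Dag1, Cd151, Plec, Sparc and the myogenic factors. From each list, the 3 genes with the smallest limma p and the 2 with the highest level per length were named, and for each subunit the 3 genes nearest in pattern. A gene that this rule names is not reported here. Sparc stood at 26618.7 to 35642.9 scaled reads and Myf5 at 1196.6 to 2253.8.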

Additional observations from a re-analysis of the deposited data

How the results depend on the processing

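Itga1, Itga2 and Itga3 kept a positive log2 fold change in all 21 alternatives (0.60 to 1.66, 1.85 to 3.35 and 0.09 to 0.81). The sign turned in 7 alternatives for Itga10, in 4 of 19 for Itga11, in 2 for Itga6, in 5 for Itga7 (1 of them at 0.00) and in 3 for Itgb4. Itga11 went from -0.10 to -0.97 and 0.84 with the block and without number 2 or 3. With the replicate block, limma called 0 genes (933 at an unadjusted p under 0.05, against 276). It called 0 of the pathway genes (14 at an unadjusted p under 0.05, against 5) and left the log2 fold change of Itga2 at 2.54. DESeq2 with the replicate block called 7 genes, and limma with the replicate block and without number 1 called 93, of which 1 was a pathway gene (Itgb3); the causes were not tested. Without a block, leaving out the library labelled Islr knockout 1 gave 831 genes at an unadjusted p under 0.05, leaving out control 2 gave 520 and leaving out knockout 3 gave 91. By the longest transcript, the level per length was 13.0 for Itga1, 1130 for Itga6 and 3840 for Itga7, because the length used was shorter. In an alternative chosen after seeing the data, 43 pathway genes were higher in both pairs without number 1 (50%, beside 24.7% of all genes), as fewer pairs have to be met. Precision is limited by depth for Itga10 and Itga11, at 3 to 42 whole reads per library.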

Other observations

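The balance of Itgb1 to its alpha partners differed among the libraries. Per length (exon union), Itgb1 exceeded the sum of the 7 alpha subunits 1.96, 1.97 and 1.96 times in control 1, 2 and 3, and 1.93, 3.08 and 2.76 times in Islr knockout 1, 2 and 3. By the longest transcript the knockout ratios were 1.05, 1.88 and 1.62. Knockout 1 lay below all control libraries by either length, and knockout 2 and 3 above them. The ratio leaves out the alpha subunits Itga5, Itgav and Itga4, which also pair with Itgb1.

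Per length, the ratio of Itga7 to Itga6 was 5.31, 1.52 and 3.63 in the control and 4.24, 2.43 and 4.11 in the knockout libraries. It was lowest in both libraries of number 2, where the summed markers of differentiating muscle were also lowest. The ratio of Itga2 to Itga1 was 0.469, 1.49 and 0.919 in the control and 2.08, 1.90 and 4.42 in the knockout libraries. Here the groups did not overlap; both genes had been chosen from this contrast, so this is a description.

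Itgb1bp2, the muscle protein melusin that binds the tail of the Itgb1 product, stood at 2146.4, 4.66 and 929.0 scaled reads in the control and 1739.8, 51.7 and 219.3 in the knockout libraries. Itgb6, a subunit known mainly from epithelia, stood at 779.9, 145.7 and 445.7 against 973.2, 197.4 and 290.4. Both genes were lowest in the library labelled control 2 and were named after their values were seen.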
